A study of Mus musculus with 2 samples.

Results

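The collagen genes described here were all genes of the deposited expression table whose symbol has the form Col, a type number, the letter a and a chain number. 33 of the 16416 genes in the table met this rule. They comprised 10 fibrillar collagens, 5 chains of basement membrane collagen IV, 3 chains of collagen VI, 3 collagens of types VII and VIII, 6 fibril-associated collagens, 3 transmembrane collagens, and Col15a1, Col18a1 and Col28a1. Single-cell RNA of engrafted mouse tumors was measured with 10x 3′ chemistry of version 2 in 1 library from wild-type (WT) host mice and 1 library from S303/7A host mice. In the S303/7A mice the heat shock transcription factor HSF1 carries alanine in place of serine at amino acids 303 and 307. Tumors of 4 mice per genotype were pooled, and live CD45+ and CD45- cells were sorted and mixed at 5 to 1. The labels used here state neither the tumor type nor whether the engrafted tumor cells carry the mutation, and the level of Hsf1 RNA cannot check a change of amino acids. Because each genotype is 1 library of pooled tumors, no test between genotypes was possible: all intervals below are exact 95% intervals that cover counting error only, and animal, library and genotype cannot be told apart.

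Collagens are the main fibrous proteins of the extracellular matrix, built from chains that wind into triple helices in the endoplasmic reticulum. Fibrillar collagens I, III and V assemble into the fibrils of connective tissue, collagen IV forms the sheet of basement membranes, collagen VI forms beaded filaments around cells, and collagens XV and XVIII carry glycosaminoglycan chains in and near basement membranes. In tumors, collagen is made mainly by fibroblasts and other mesenchymal cells, and also by tumor cells of mesenchymal origin.

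The collagen VI chains and Col4a5 are shown first, because the results below turn on how far chains of 1 protein shared a pattern and because HSF1 binds DNA. Each stretch is the part of the RefSeq promoter window (build GRCm38.p6) that lies before any annotated exon, 5′ to 3′ on the gene's own strand. Capitals mark CCAAT, a common promoter motif, and GAANNTTC, an inverted pair of the short units that heat shock factors bind, both searched on both strands.
Col4a5, chrX:141475169-141475384, plus strand: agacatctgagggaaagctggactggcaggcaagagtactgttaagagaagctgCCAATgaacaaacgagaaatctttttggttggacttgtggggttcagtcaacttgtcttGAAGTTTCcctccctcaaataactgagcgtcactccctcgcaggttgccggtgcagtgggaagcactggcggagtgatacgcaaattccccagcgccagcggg
Col6a1, chr10:76726169-76726294, minus strand: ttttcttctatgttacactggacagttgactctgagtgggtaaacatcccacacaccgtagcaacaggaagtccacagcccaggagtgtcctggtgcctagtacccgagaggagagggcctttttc
Col6a2, chr10:76623631-76623880, minus strand: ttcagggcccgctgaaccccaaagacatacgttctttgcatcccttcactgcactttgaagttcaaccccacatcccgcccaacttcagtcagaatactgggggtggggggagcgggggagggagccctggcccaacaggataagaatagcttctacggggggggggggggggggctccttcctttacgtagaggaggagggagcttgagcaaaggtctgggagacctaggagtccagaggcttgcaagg
Col6a3, chr1:90843972-90844221, minus strand: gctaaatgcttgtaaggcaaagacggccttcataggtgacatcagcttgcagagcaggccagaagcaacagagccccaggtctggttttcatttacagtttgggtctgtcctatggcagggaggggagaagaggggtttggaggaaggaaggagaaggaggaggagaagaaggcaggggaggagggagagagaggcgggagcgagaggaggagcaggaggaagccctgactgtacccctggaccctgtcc
RefSeq windows of 300 bases were found for 27 of the 33 collagen genes, in 29 windows. CCAAT lay in 11 of the 29 windows, or 37.9%, against 37.4% of all 32851 windows. GAANNTTC lay in 1 of the 29, or 3.45%, that of Col4a5, against 7.86% of all windows. The 3 collagen VI stretches held neither string of letters. A match here describes letters only, not binding.

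Genes for several pairs of chains are neighbours in GRCm38. Col6a1 (10:76708792-76726168) and Col6a2 (10:76595762-76623630) lie on the same strand with 85161 bases between them, whereas Col6a3 lies on chromosome 1 (90765923-90843971). Col4a1 (8:11198423-11312826) and Col4a2 (8:11312805-11449287) are annotated head to head and overlap by 22 bases. Col4a5 (X:141475385-141689234) and Col4a6 (X:141165403-141474076) lie head to head with 1308 bases between them. Col3a1 (1:45311538-45349706) and Col5a2 (1:45374321-45503282) lie tail to tail, 24614 bases apart. The positions of the other genes that matter below are 11:94936224-94953042 for Col1a1, 6:4504814-4541544 for Col1a2, 4:47208161-47313167 for Col15a1 and 10:77052178-77166548 for Col18a1.

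The table held 6654 WT and 4802 S303/7A cells with 87075636 and 72802161 unique molecular identifiers (UMIs), and the median cell was shallower in WT (7698 UMIs) than in S303/7A (13028). Most of this gap lay in the immune clusters (4897 against 11128), while medians in tumor clusters C01, C04, C08 and C14 lay between 17991 and 41351 in both libraries. 48 cell barcodes occurred in both libraries. The CD45- classes made up 37.5% of the cells in WT and 22.3% in S303/7A, so values of a whole library mix these unequal shares, and the sort and mixing set the shares themselves. Levels below are the mean over a group's cells of UMIs per 10000 UMIs (CP10K); 1 UMI is 1 captured 3′ end and is not scaled by gene length. Clusters come from the authors' deposited annotation, which may have used collagen genes, so differences between clusters are descriptions.

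Collagen RNA lay almost entirely outside the immune clusters. The CD45- classes held 98.7% of the 237796 collagen UMIs of the WT library and 97.4% of the 113247 of the S303/7A library, and cluster C01 alone held 46.7% and 46.6%. In summed UMIs, the 33 genes together reached 63.8 CP10K in WT and 58.2 in S303/7A in C01 (921 and 387 cells). They reached 42.2 and 39.6 CP10K in C08 (392 and 279 cells), 23.3 and 26.2 in C04 (780 and 133 cells), and 19.6 and 18.2 in C14 (239 and 136 cells). The order C01, C08, C04, C14 was the same in both libraries.

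**Figure D1:**
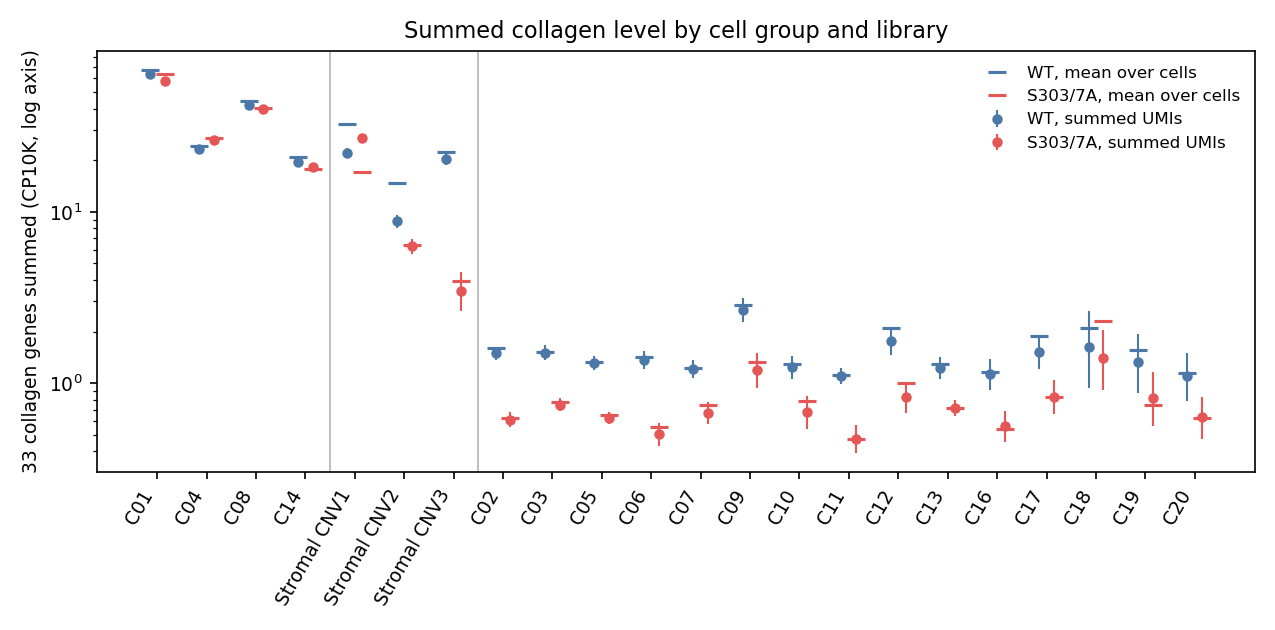
Summed level of the 33 collagen genes (y axis, CP10K, log scale) by cell group (x axis) in the WT (blue) and S303/7A (red) libraries. Points are summed UMIs with 95% Poisson intervals and dashes are means over cells. C01 is highest among the tumor clusters, at 63.8 and 58.2 CP10K, and immune clusters lie far below the tumor clusters in both libraries.

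The sum was carried by few genes. 11 of the 33 collagens reached 1 CP10K in at least 1 group of 20 or more cells, 13 more reached 0.1, and 9 did not. In C01, Col3a1, Col1a2 and Col6a1 held 22.9%, 22.1% and 16.1% of the WT collagen UMIs. In C14 the leading genes were Col18a1 (37.1%), Col6a3 (21.2%) and Col1a2 (16.1%). The tumor clusters thus differed in which collagens led as well as in their sum.

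Among the fibrillar collagens, Col1a2, which encodes the α2 chain of collagen I, was high in every tumor cluster. Its level was 14.5 CP10K in WT and 15.5 in S303/7A in C01, 6.84 and 8.47 in C04, 7.93 and 7.42 in C08, and 3.50 and 2.74 in C14. Col1a1, which encodes the α1 chain, was far more unequal: 3.21 and 3.03 CP10K in C01, 0.232 and 0.283 in C04, 0.319 and 0.0839 in C08, and 0.0585 and 0.0229 in C14. A Col1a1 UMI was found in 56.1% of WT and 58.4% of S303/7A cells of C01, but in 7.95% and 4.41% of cells of C14. Col1a1 UMIs were thus largely those of C01.

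Col3a1, the single chain of collagen III, stood at 16.0 and 14.5 CP10K in C01 and at 7.57 and 8.96 in C08. It was lower in C04, at 2.03 and 2.73, and in C14, at 1.83 and 2.05. The 3 chains of collagen V, which sits inside collagen I fibrils and limits their width, were lower. Col5a2 reached 2.21 and 2.03 CP10K in C01 and 1.48 and 1.54 in C08, with 0.688 and 0.910 in C04 and 0.525 and 0.831 in C14. Col5a1 was between 0.334 and 0.910 in the tumor clusters, and Col5a3, highest in C08, between 0.160 and 0.393. Col11a1, a chain of collagen XI best known from cartilage, was present in C01 at 0.461 and 0.497. Col27a1 reached 0.159 in C01. The order C01, C08, C04, C14 held for Col3a1 and Col5a2 in both libraries, but not for Col1a1 in S303/7A, where C04 lay above C08.

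The 3 chains of collagen VI did not share a pattern over the tumor clusters. Col6a1 stood at 11.0 (WT) and 9.56 (S303/7A) CP10K in C01, 7.58 and 6.14 in C08, 2.37 and 2.84 in C04, and 1.28 and 1.70 in C14. Col6a2 followed the same order, at 5.85 and 5.06, 3.51 and 2.66, 1.05 and 1.38, and 0.422 and 0.596. Col6a3, the long α3 chain, was nearly level instead, at 3.40 and 2.66 in C01, 5.08 and 4.00 in C08, 3.67 and 3.25 in C04, and 4.14 and 2.99 in C14. So the highest cluster for Col6a1 and Col6a2 was the lowest for Col6a3 in both libraries. Over the 13 points formed by the tumor clusters and Stromal groups in each library, which share library and depth, levels of Col6a1 and Col6a2 had a Pearson correlation of 0.985, and levels of Col6a1 and Col6a3 one of 0.485. Over cells within a tumor cluster and library, the correlation of Col6a1 with Col6a2 ran from 0.647 (C14, WT) to 0.888 (C01, S303/7A), and that of Col6a1 with Col6a3 from 0.334 (C14, WT) to 0.557 (C01, S303/7A).

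**Figure D2:**
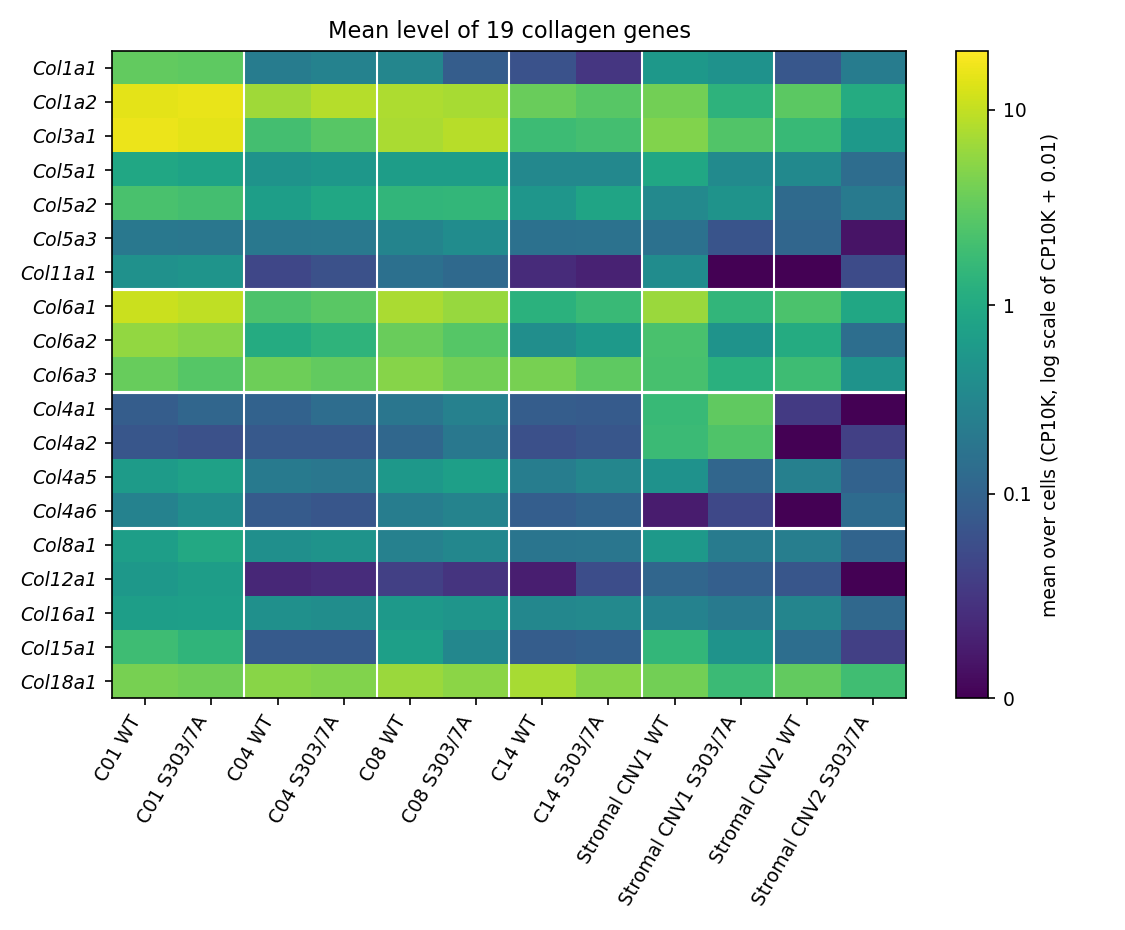
Mean level (CP10K + 0.01, log colour scale) of 19 collagen genes (vertical axis) in 6 cell groups of the WT and S303/7A libraries (horizontal axis). Col3a1, Col1a2, Col6a1 and Col6a2 are brightest in C01, Col18a1 and Col6a3 are present at several CP10K in all 4 tumor clusters, and Col4a1 and Col4a2 stand out in the Stromal CNV1 cells.

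Basement membrane collagen IV was low in tumor cells. The chains of its common form, Col4a1 and Col4a2, were at most 0.271 and 0.201 CP10K in the tumor clusters, both in S303/7A cells of C08. Col4a5 was the leading chain there, at 0.637 and 0.775 in C01, 0.561 and 0.726 in C08, 0.219 and 0.194 in C04, and 0.238 and 0.321 in C14. Its neighbour Col4a6 reached 0.279 and 0.408 in C01 and 0.240 and 0.293 in C08. Col4a4 did not exceed 0.00886 CP10K, a value resting on 1 UMI.

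Col18a1, whose C-terminal fragment is endostatin, and Col15a1, its close relative, were distributed differently. Col18a1 stood at 7.30 (WT) and 5.06 (S303/7A) CP10K in C14, 6.44 and 5.37 in C08, 5.14 and 4.66 in C04, and 4.23 and 3.84 in C01. C01, the cluster with the highest collagen sum, therefore had the lowest Col18a1 of the tumor clusters in both libraries. Col15a1 was 1.88 and 1.46 in C01 and 0.719 and 0.330 in C08, and was under 0.1 in both libraries in C04 and C14.

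Col8a1, a chain of the short-chain network collagen VIII, was at 0.705 and 0.960 CP10K in C01 and between 0.180 and 0.482 in the other tumor clusters. The fibril-associated collagens Col12a1 and Col16a1 stood at 0.569 and 0.669 and at 0.693 and 0.710 in C01. Of the remaining genes above 0.1 CP10K in any group, Col7a1 (0.102 in WT Stromal CNV1 cells) and Col9a3 (0.309 in WT cells of immune cluster C18) each rested on 1 UMI. Col14a1 reached 0.103 in immune cluster C09 on 7 UMIs, and Col23a1 0.121 in immune cluster C20 on 8 UMIs. Col28a1, Col17a1, Col8a2, Col11a2, Col25a1, Col4a4, Col20a1, Col24a1 and Col22a1 stayed under 0.1 in every group of at least 20 cells.

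Ratios of UMIs between chains of 1 library do not depend on how cells were scaled. The number of Col1a1 UMIs per Col1a2 UMI was 0.206 in WT and 0.172 in S303/7A cells of C01, 0.043 and 0.013 in C08, 0.030 and 0.030 in C04, and 0.015 and 0.009 in C14. As background, the common form of collagen I holds more α1 than α2 chains. The number of Col6a2 UMIs per Col6a1 UMI varied little, from 0.341 to 0.537. Col6a3 UMIs per Col6a1 UMI ran from 0.326 and 0.303 in C01 to 3.84 and 1.86 in C14, with 0.734 and 0.701 in C08 and 1.63 and 1.17 in C04. Col18a1 UMIs per Col15a1 UMI were 2.58 and 3.40 in C01 but 72.6 and 66.2 in C04. Both libraries thus had the same order of clusters for Col6a3 per Col6a1.

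**Figure D3:**
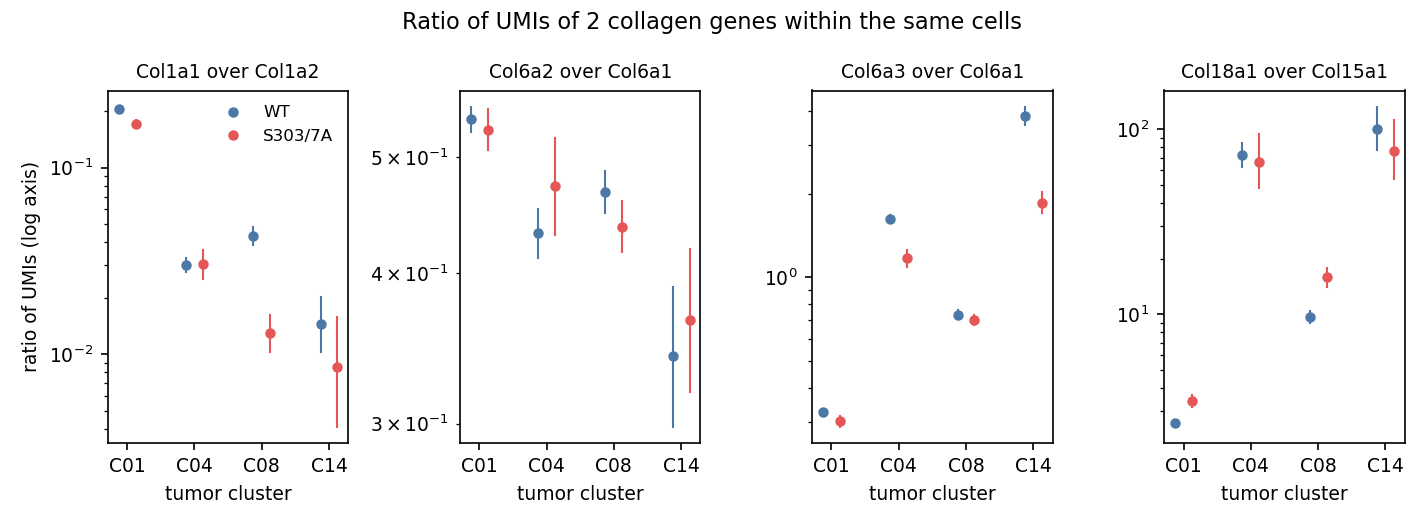
UMI ratios between pairs of collagen genes (y axis, log scale) in the 4 tumor clusters (x axis) of the WT (blue) and S303/7A (red) libraries, with 95% intervals and each panel on its own scale. Col6a2 per Col6a1 varies little, between 0.341 and 0.537, while Col6a3 per Col6a1 is lowest in C01 (0.326 and 0.303) and highest in C14 (3.84 and 1.86).

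The deposited annotation also assigns each cell to a copy number group, CNV1 to CNV3. Within C01 the level of several collagens differed between these groups. By summed UMIs the collagens together reached 91.6 CP10K in WT and 94.0 in S303/7A in CNV1 cells (105 and 32 cells), 71.6 and 63.5 in CNV2 (404 and 202 cells), and 50.5 and 46.3 in CNV3 (412 and 153 cells). As means over cells these were 91.1 and 105.5, 75.7 and 67.5, and 52.8 and 48.7, in the same order. In means over cells Col1a1 followed this order steeply, at 7.52 and 12.8 CP10K, 4.44 and 3.26, and 0.901 and 0.689. Col15a1 did so too, at 3.50 and 3.17, 2.63 and 1.82, and 0.742 and 0.613. Col18a1 had the opposite order, at 3.22 and 2.91, 3.86 and 3.52, and 4.85 and 4.45. Within C08, the 33 WT cells of CNV2 stood at 2.40 CP10K for Col1a1 and 5.06 for Col15a1, while the 349 WT cells of CNV3 stood at 0.0998 for Col1a1.

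In the comparison of S303/7A with WT within tumor clusters, most collagens differed by little. Of the genes at 0.1 CP10K or more in 1 library, 0 of 19 collagens in C01, 0 of 14 in C04, 1 of 18 in C08 and 0 of 13 in C14 differed by 2-fold or more on the scale of log2(mean CP10K + 0.1), a scale that understates differences between low values. Over all genes measured in the same way the shares were 0.402%, 0.383%, 0.168% and 0.776%. The 1 gene was lower, as were 0.042% of all genes in C08. The median log2 ratio of the collagens was -0.08 in C01, 0.18 in C04, -0.06 in C08 and 0.09 in C14, against 0.00, -0.04, -0.03 and -0.03 over all genes. In summed UMIs, S303/7A over WT was 0.912 (0.902 to 0.921) in C01, 1.12 (1.10 to 1.14) in C04, 0.939 (0.926 to 0.952) in C08 and 0.928 (0.903 to 0.953) in C14. The sum was thus above WT in C04 and below it in C01, C08 and C14.

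The single gene past 2-fold was Col1a1 in C08, with 344 UMIs in 55 of 392 WT cells and 81 UMIs in 23 of 279 S303/7A cells. The UMI ratio was 0.284 (0.220 to 0.363) and the log2 ratio was -1.19. In CNV3 cells of C08 alone, Col1a1 was at 0.0998 and 0.0319 CP10K, both under the 0.1 CP10K needed to be counted. There 0 of the 17 collagens counted were past 2-fold, against 0.169% of all genes higher and 0.0422% lower. The CNV2 cells of C08, where Col1a1 was high, numbered 33 in WT and 14 in S303/7A. Without cells that held a UMI of the leukocyte gene Ptprc, Col1a1 stood at 0.264 and 0.0883 CP10K, a log2 ratio of -0.95, and Col15a1 was past 2-fold in its place. 1 cell held 39 of the WT and 1 cell 32 of the S303/7A UMIs.

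Intervals of the UMI ratio that exclude 1 were frequent among all genes. These intervals narrow as UMI counts rise and do not cover spread between cells. Why so many excluded 1 was not tested. In C01 the interval lay above 1 for 5 and below 1 for 10 of 19 collagens, against 15.5% and 18% of all genes measured. In C04 it lay above for 8 and below for 2 of 14 (9.67% and 21.2% of all genes). In C08 these numbers were 6 and 8 of 18 (12.8% and 24.1%), and in C14 they were 6 and 3 of 13 (15.6% and 17.8%). Highly captured genes have narrow intervals, and the collagens include several such genes. 12 collagens were measured in all 4 tumor clusters. The interval lay below 1 in all 4 for Col6a3 and Col18a1 and above 1 in all 4 for none. The share of all genes with an interval on the same side in all 4 clusters was not determined, so these counts are not read as particular to collagens.

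**Figure D4:**
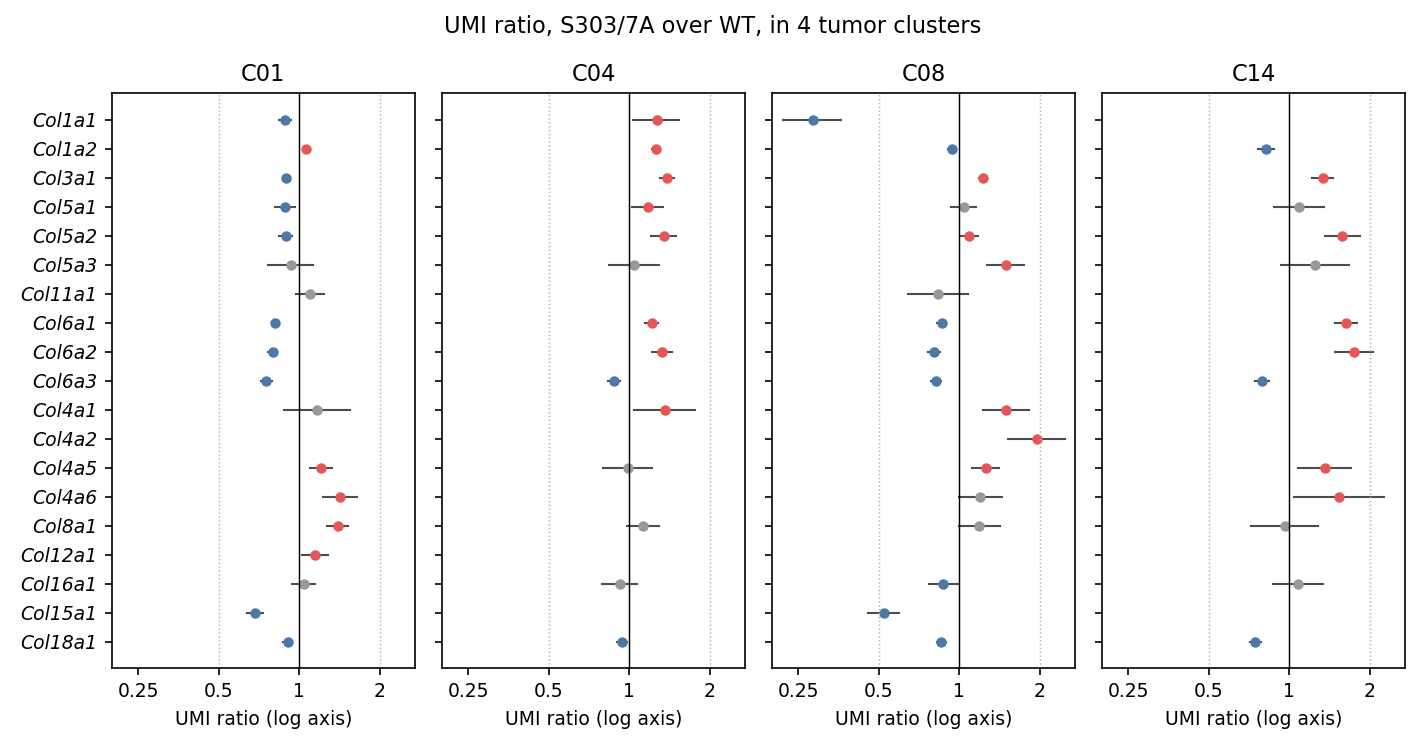
UMI ratio of S303/7A over WT (x axis, log scale) with 95% intervals for 19 collagens (y axis) where at 0.1 CP10K or more in C01, C04, C08 and C14; Col27a1 is not drawn. Red points have intervals above 1, blue points below 1 and grey points cover 1; dotted lines mark 0.5 and 2. Col6a3 and Col18a1 are blue in all 4 panels, and Col6a1, Col6a2 and Col3a1 change side between C01 and C14.

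For Col6a3 the UMI ratio was 0.754 (0.718 to 0.791) in C01, 0.875 (0.830 to 0.922) in C04, 0.820 (0.786 to 0.854) in C08 and 0.789 (0.742 to 0.839) in C14. For Col18a1 it was 0.905 (0.870 to 0.942), 0.938 (0.898 to 0.980), 0.857 (0.826 to 0.889) and 0.745 (0.710 to 0.781). In CNV3 cells alone the ratios of Col6a3 were 0.767, 0.868, 0.822 and 0.754. Those of Col18a1 were 0.902, 0.957 with an interval of 0.912 to 1.00, 0.845 and 0.738. Both genes were thus lower in S303/7A in each tumor cluster of these libraries.

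The other collagen VI chains went below WT in C01 and C08 and above it in C04 and C14. The UMI ratio of Col6a1 was 0.812 (0.790 to 0.834) in C01, 0.859 in C08, 1.21 in C04 and 1.63 (1.48 to 1.79) in C14. That of Col6a2 was 0.796 (0.767 to 0.826), 0.804, 1.33 and 1.74 (1.48 to 2.06). In C14 the α3 chain and the α1 and α2 chains of collagen VI therefore differed from WT in opposite directions, and the 3 chains summed to a ratio of 1.01. Collagen VI summed to 0.797 in C01, 1.05 in C04 and 0.834 in C08.

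Among the fibrillar genes, Col3a1 was lower than WT in C01, at 0.889 (0.870 to 0.909), and higher in C04, at 1.38 (1.30 to 1.47), in C08, at 1.22 (1.18 to 1.27), and in C14, at 1.33 (1.22 to 1.45). Col1a2 was at 1.06 (1.04 to 1.09) in C01, 1.26 (1.22 to 1.30) in C04, 0.936 (0.905 to 0.967) in C08 and 0.819 (0.763 to 0.878) in C14. In C14 the intervals of Col3a1 and Col1a2 lay on opposite sides of 1. Col5a2 was at 0.890 (0.840 to 0.942) in C01 and 1.58 (1.36 to 1.83) in C14. Fibrillar collagens together stood at 0.961 in C01, 1.28 in C04, 1.06 in C08 and 1.04 in C14.

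Collagen IV summed higher in S303/7A in all 4 clusters, with ratios of 1.25 (1.16 to 1.34) in C01, 1.08 (0.940 to 1.23) in C04, 1.35 (1.25 to 1.47) in C08 and 1.26 (1.07 to 1.48) in C14. The interval for C04 covered 1. Col4a5 stood at 1.21 (1.09 to 1.33) in C01, 0.987 in C04, 1.26 (1.12 to 1.41) in C08 and 1.36 (1.08 to 1.70) in C14. Col4a6 was at 1.42 (1.23 to 1.64) in C01, and Col4a2 at 1.94 (1.53 to 2.49) in C08, where it was 0.118 CP10K in WT and 0.201 in S303/7A. Summed levels of endothelial markers, a cell type rich in Col4a1 and Col4a2, were 0.06 to 0.30 CP10K in the tumor clusters, with at most 1 of 10 markers (Flt1) at 0.1 or more and with Cldn5 and Ptprb at 0 in each of these clusters and libraries, and their part in these ratios was not tested. Col8a1 was at 1.40 (1.28 to 1.53) in C01. Col15a1 was at 0.686 (0.639 to 0.736) in C01 and 0.521 (0.454 to 0.597) in C08. In CNV3 cells alone the C08 ratio of Col15a1 was 1.15 (0.938 to 1.41), whereas its C01 ratio was 0.739.

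The libraries held different numbers of cells in each tumor cluster, and pooling the clusters gave other values. Col3a1, Col6a1 and Col6a2 stood at 1.25, 1.07 and 1.04 over the pooled tumor cells, although Col6a1 and Col6a2 were below 1 in C01 and C08.

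The Stromal class was small, with 54 WT and 60 S303/7A cells in CNV1, 67 and 62 in CNV2, and 42 and 16 in CNV3, the last too few to compare. Summed collagens in CNV1 were 22.0 and 26.8 CP10K by UMIs but 32.5 and 17.0 as means over cells, so the direction depended on whether deep cells weighed more. In CNV2 they were 8.80 and 6.29 by UMIs and 14.8 and 6.37 as means over cells. Past 2-fold in means over cells were 0 collagens higher and 10 lower of 19 in CNV1, against 13.8% higher and 20% lower over all genes. In CNV2 1 was higher and 6 were lower of 15, against 7.23% and 15.4%. Without the shallowest 10% of cells, 2 collagens were higher and 2 lower of 17 in CNV1 (6.85% and 18.7% of all genes). By summed UMIs, 2 were higher and 4 lower of 16 in CNV1 (4.68% and 9.43%). In CNV2, 0 were higher and 1 lower of 11 by summed UMIs (1.55% and 1.98%). The shares of all genes were thus also far larger than in the tumor clusters. With genes of more than 3 UMIs in a library, 0 collagens were higher and 8 lower of 16 in CNV1 (11.3% and 17.9% of all genes), and 0 higher and 5 lower of 13 in CNV2 (5.64% and 11.3%).

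In CNV1, Col6a1 stood at 6.34 (WT) and 1.49 (S303/7A) CP10K, on 80 and 25 UMIs. Col1a2 was at 4.00 and 1.34 (114 and 34 UMIs), Col3a1 at 4.79 and 2.52 (79 and 41 UMIs) and Col18a1 at 3.99 and 1.78 (114 and 82 UMIs). Col4a1 and Col4a2 went the other way, at 1.66 and 3.09 and at 1.79 and 2.48. Their UMI ratios were 3.45 (2.79 to 4.30) and 2.87 (2.30 to 3.60). In CNV2, Col1a2 was at 2.96 and 1.06 (95 and 85 UMIs), and Col6a2 at 1.06 and 0.147 (33 and 13 UMIs). Col6a3 was at 1.90 and 0.489 (72 and 46 UMIs). By summed UMIs only Col6a2 of these was past 2-fold in CNV2. Col18a1 was the highest collagen there in both libraries, at 3.18 and 1.95.

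The Stromal class held several kinds of cells. Clustering its 301 cells without the collagen genes gave 7 subclusters, of which S7 was endothelial-like and S6 epithelial-like by their markers, while the others stayed unnamed. S6 had 17 cells, a median of 729 UMIs and 6 collagen UMIs. Its name did not hold at a resolution of 0.5, where Krt8 and Krt18 were among the leading genes of an unnamed subcluster of 78 cells. S5 (19 WT and 7 S303/7A cells) was led by Acp5, Ctsk and Mmp9, genes known from osteoclasts, and all 8 macrophage markers were higher in it, so it was given no name. S7 had 13 cells, 5 WT and 8 S303/7A, all in CNV1, yet held 31.6% of all Stromal collagen UMIs. It held 98.6% of the Stromal UMIs of Col4a1 (477 of 484) and 98.3% of those of Col4a2 (403 of 410). In S7, Col4a1 stood at 16.8 (WT) and 23.1 (S303/7A) CP10K and Col4a2 at 15.3 and 18.1, whereas Col1a2 was at 0.398 and 0.199. S7 also held 61.6% of Col15a1, 41.7% of Col8a1 and 12.3% of Col18a1 UMIs, but 1.26% of Col1a2 and 0.372% of Col3a1 UMIs. Summed endothelial markers of CNV1 stood at 4.36 and 7.78 CP10K, with 8 and 10 of 10 markers at 0.1 or more, and in WT Cldn5 and Ptprb were at 0. Without S7, the ratio of summed collagen UMIs in CNV1 was 0.572, against 1.22 (1.11 to 1.34) with it.

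Outside S7, the highest collagen level lay in S4, led by Postn, Penk and Apod. It was an unnamed subcluster of 25 WT and 9 S303/7A cells, with a median of 1952.5 UMIs. By summed UMIs S4 stood at 47.9 CP10K and S7 at 48.4, but as means over cells S4 was higher, at 57.5 against 45.5. In S4, Col6a1 stood at 17.5 and 9.35 CP10K, Col3a1 at 12.3 and 10.3, and Col1a2 at 9.02 and 5.58. S3, led by the interferon response gene Ifit1 and the chemokine gene Ccl2, followed at 21.3 CP10K. The largest subclusters, S1 (93 cells, led by Mmp3 and Ctsl) and S2 (71 cells, led by cell cycle genes), were lower, at 7.44 and 5.21. The number of S4 cells thus differed between the libraries along with the Stromal means of Col6a1 and Col1a2, and its part in them was not tested.

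**Figure D5:**
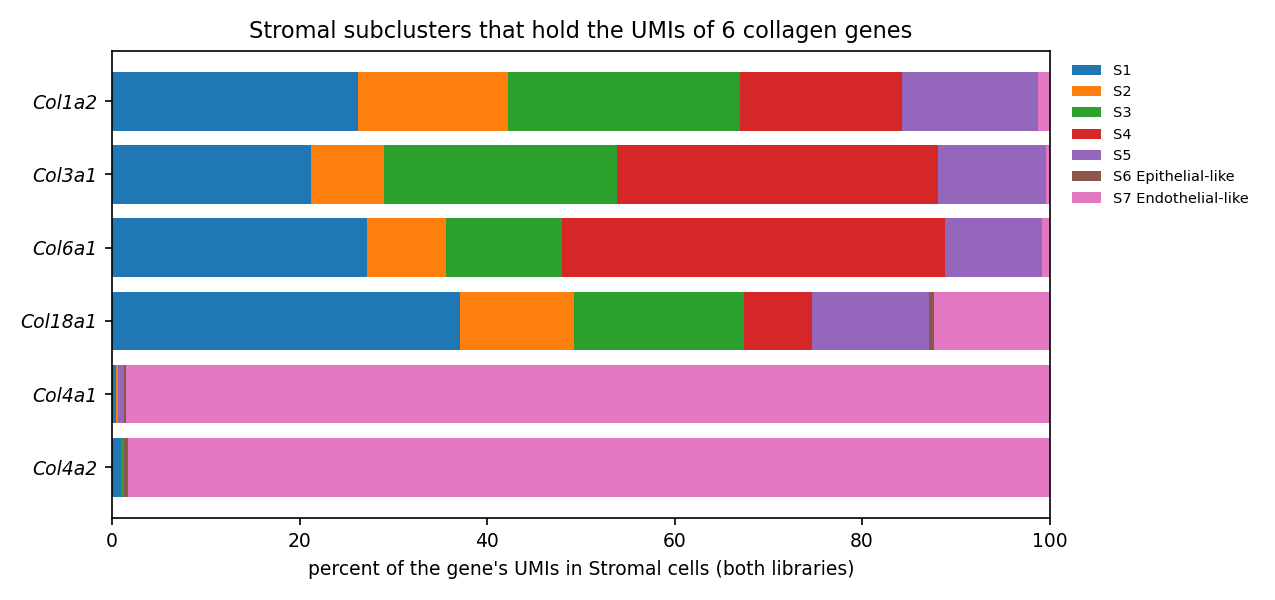
Percent of each gene's Stromal UMIs (x axis, stacked bars) for 6 collagen genes (y axis) by Stromal subcluster S1 to S7, both libraries together. S7, of 13 cells, takes 98.6% of Col4a1 and 98.3% of Col4a2 but 12.3% of Col18a1 and 1.26% of Col1a2.

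Immune clusters had a low collagen signal. Pooled, they stood at 1.36 (WT) and 0.662 (S303/7A) CP10K in summed UMIs, a ratio of 0.487 (0.463 to 0.512). These levels were 3.69% and 1.72% of those of the CD45- cells of the same library. Of the 11 collagens that reached 1 CP10K, 9 lay between 2.80% and 4.19% in WT and between 1.21% and 1.80% in S303/7A. Col1a2 was at 3.31% and 1.34%, Col3a1 at 3.07% and 1.21%, Col6a1 at 3.24% and 1.47%, Col6a3 at 4.19% and 1.60%, and Col18a1 at 4.11% and 1.80%. The other 2 lay above these ranges in both libraries. Col15a1 was at 5.68% (4.51 to 7.06) and 6.80% (5.72 to 8.04), on 83 and 154 immune UMIs, and Col1a1 at 4.30% (3.47 to 5.26) and 3.02% (2.49 to 3.63), on 95 and 120. Immune cells are not known as makers of fibrillar collagen, and the part of free RNA in these levels was not tested. A collagen UMI was found in 49.5% (48.0 to 51.0) of WT and 49.0% (47.4 to 50.6) of S303/7A immune cells, at median depths of 4897 and 11128 UMIs. Thinned to 1000 UMIs per cell, the shares were 14.4% and 6.54%, lower in S303/7A as the CP10K were.

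Some less captured collagens also lay above the overall share. Col16a1 was at 5.10% and 2.83%, and Col7a1 at 4.72% and 8.80%, the latter on 20 immune UMIs. Col14a1, a fibril-associated collagen, had 31 immune and 32 CD45- UMIs in WT and 136 and 21 in S303/7A, so that its immune level was 262% and 419% of the CD45- level. In immune cluster C03 of the S303/7A library, 51 Col14a1 UMIs lay in 42 cells, or 7.71% of the cells, at 0.0765 CP10K. Col11a2 had 7 and 24 immune UMIs against 5 and 1 in CD45- cells. Col11a2 overall remained under 0.1 CP10K. Col20a1 was seen only as 5 UMIs in S303/7A immune cells.

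Genes that act on collagen were given by lists that include enzymes of the endoplasmic reticulum, processing and crosslinking enzymes, matrix proteins that organize fibrils, receptors and degrading enzymes. Serpinh1, the collagen chaperone HSP47 and itself a heat-inducible gene, was lower in S303/7A in every tumor cluster. It stood at 5.29 (WT) and 4.12 (S303/7A) CP10K in C01, a UMI ratio of 0.785 (0.756 to 0.816). It stood at 4.69 and 3.83 in C04 (0.827), 4.09 and 2.73 in C08 (0.667, 0.634 to 0.702) and 3.76 and 2.85 in C14 (0.802). In the Stromal groups its UMI ratio was 1.29 in CNV1 and 1.18 in CNV2, with means over cells of 3.71 and 3.23 and of 3.03 and 3.16 CP10K, so that no direction held for both measures in both groups. None of these Serpinh1 differences reached 2-fold.

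Of the 22 modifying enzymes and chaperones in the table, 8 were higher and 11 lower in S303/7A, by any amount, of 19 measured in C01 (50.4% and 49.6% of all genes). In C08, 4 were higher and 15 lower of 19 (42.7% and 57.3%). In C04 8 were higher and 10 lower of 18 (38.7% and 61.3%), and in C14 8 and 9 of 17 (45.4% and 54.6%). None was past 2-fold in these clusters. Named by size, P4hb, a subunit of prolyl hydroxylase, had means over cells of 1.60 and 0.877 CP10K in Stromal CNV2 cells, with a UMI ratio of 0.948 (0.669 to 1.34). P4ha1, its catalytic partner, had means of 0.649 and 0.505 in Stromal CNV1 cells, with a UMI ratio of 1.53 (0.773 to 3.09). Both intervals cover 1. Ppib, a prolyl isomerase, stood at 4.15 and 3.62 in C14. The sum of the list in UMIs was 0.937 in C01, 0.934 in C04, 0.860 in C08 and 0.975 in C14.

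Among processing and crosslinking genes, Loxl1, a lysyl oxidase, stood at 1.46 and 1.72 CP10K in C01. Pcolce, an enhancer of procollagen cleavage, stood at 1.05 and 0.750 in Stromal CNV2 cells, with a UMI ratio of 0.816 (0.536 to 1.24). Tgm2, a crosslinking transglutaminase, was low there, at 0.0556 and 0.206 on 5 and 7 UMIs. Its UMI ratio was 1.22 (0.332 to 4.86). The intervals of Pcolce and Tgm2 cover 1. The fibril-organizing genes summed to UMI ratios of 1.03 in C01, 1.22 in C04, 1.13 in C08 and 1.40 in C14. Of these, Postn was at 1.91 and 0.290 in Stromal CNV1 cells, on 19 and 4 UMIs. Lum stood there at 0.0482 and 0.286, on 4 and 9 UMIs, and its UMI ratio interval of 0.667 to 10.6 covered 1. Fn1 was at 5.76 and 3.16 and Dcn at 0.595 and 0.142 in Stromal CNV2 cells, the latter on 40 and 11 UMIs. In C14, 1 fibril-organizing gene was higher and 0 lower past 2-fold of 6 measured (0.603% and 0.172% of all genes). Dcn was higher there in S303/7A, at 3.64 CP10K, while the highest fibroblast marker in WT was Gsn at 1.55. Among receptors, Itgb1, the β1 integrin subunit, was at 2.45 and 3.48 in Stromal CNV1 cells, with a UMI ratio of 1.23 (0.907 to 1.66). Of the degrading enzymes and their inhibitors, 1 was higher and 1 lower past 2-fold of 7 measured in C14 (0.603% and 0.172% of all genes). The higher was Mmp3, stromelysin-1, at 0.460 (WT) and 5.16 (S303/7A) CP10K, on 321 and 1765 UMIs, a UMI ratio of 9.76 (8.66 to 11.0). Ctsk and Mmp9 were high in Stromal CNV1 cells of WT (7.05 and 5.68) and near 0 in those of S303/7A (0.0341 and 0.0282), and in CNV2 cells their order was the reverse (0.562 and 3.06, and 0.0934 and 2.29). Subcluster S5 held 95.4% of the Stromal UMIs of Ctsk and 96.1% of those of Mmp9. In CNV1, 10 WT and 5 S303/7A cells belonged to it. In CNV2 only 3 WT cells and 1 S303/7A cell did. The higher CNV2 values of S303/7A may thus rest on 1 cell, which was not tested. Summed macrophage markers in CNV1 stood at 9.35 and 5.51 CP10K, with 6 of 8 markers at 0.1 or more in each library. Adgre1 was at 0 in S303/7A. The part of cells with these markers in the Ctsk and Mmp9 values was not tested. The membrane protease gene Mmp14 had means of 3.18 and 1.27 in Stromal CNV1 cells but a UMI ratio of 1.03 (0.731 to 1.46).

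The genes most like the collagen sum over the same 13 points were found among 2047 genes by Pearson correlation on the same log2 scale. They were Rhoj (0.972), Nr2f1 (0.967), Zcchc24 (0.962), Tcf4 (0.961), Pdgfrb (0.959), Zbtb20 (0.955), Eva1b (0.948), Fgfr1 (0.946), Tnfaip8 (0.944) and Grn (0.944). Summed fibroblast markers were also highest among the tumor clusters in C01, at 12.4 and 14.7 CP10K, with 7 and 8 of 10 markers at 0.1 CP10K or more. C08 followed at 6.38 and 8.26, with 5 and 4 of 10 markers at that level. Clec3b was at 0 in C08 in both libraries, and Mfap5 in S303/7A. Gsn alone stood at 5.343 (WT) and 6.721 (S303/7A) CP10K in C01 and at 4.397 and 5.996 in C08. It was also the highest of these markers in the pooled immune clusters, at 1.299 and 1.332. Among collagens themselves, Col4a1 and Col4a2 correlated at 0.982 over these points, Col3a1 and Col6a1 at 0.944, and Col18a1 and Col6a3 at 0.876, while Col18a1 and Col1a1 stood at -0.197. The points share libraries and cells of pooled tumors and are not independent.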

How the data were processed

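One single-cell library of each genotype was used. Per the submitters' processing notes, Cell Ranger and Seurat 3.0 were named, with builds mm10 and GRCm38; the aligner settings, the doublet treatment and the methods behind clusters and copy number groups are not stated in the sources used here. The deposited values are the natural log of 1 plus UMIs per 100000 in each cell, and the authors' table of cells gives UMI counts and mitochondrial percent per the file headers. Whole UMIs were recovered from the log values, with 99.9% of the values whole to within 0.1 UMI. No unmapped column was used.

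Levels were means over cells of UMIs per 10000 (CP10K), given for groups of at least 20 cells. Log2 ratios used a pseudocount of 0.1 among genes of at least 0.1 CP10K in 1 library. UMI ratios used sums over cells with exact conditional 95% intervals, and shares used Clopper-Pearson intervals. With 1 library per genotype no test was run. The procedure was tested on simulated data. All genes of the deposited table were processed together. Named were collagens of at least 1 CP10K in any group, the others by their highest level, the pathway genes of at least 1 CP10K with the 4 largest log2 ratios of their list, Serpinh1, and the 10 genes most like the collagen sum. The members and lists were chosen with earlier results of these data known. Stromal subclusters were made with scanpy 1.11.5 and leidenalg 0.10.2 from 1000 variable genes, 15 components, 15 neighbours and resolution 1. No doublets were removed for the values given; Scrublet's own threshold marked 0.827% (WT) and 0.0833% (S303/7A) of the cells. Alternatives covered doublets, shallow cells, Ptprc cells, pseudocounts, filters, thinning to 1000 UMIs and centring, with 3 added after seeing the data: without the endothelial-like cells, CNV3 cells alone, and genes of more than 3 UMIs. Python 3.11.15, numpy 2.4.6, scipy 1.17.1, pandas 2.3.3 and matplotlib 3.10.9 were used.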

Additional observations from a re-analysis of the deposited data

Results flagged for a closer look

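The UMI ratio of S303/7A over WT lay below 1 in 1 tumor cluster and above 1 in another for 7 of 20 collagens. These 20 were measured in at least 1 tumor cluster. The same held for the sum of all 33, and the intervals excluded 1 on both sides in each case. The share of all genes that did so was not determined, so this count is not read as particular to collagens. With 1 library per genotype, the difference between clusters was not tested, and the intervals cover counting error only. Col1a1 was at 0.284 in C08 and 1.27 in C04. Col1a2 was at 0.819 in C14 and 1.26 in C04. Col3a1 was at 0.889 in C01 and 1.38 in C04, and Col5a1 at 0.886 in C01 and 1.17 in C04. Col5a2 was at 0.890 in C01 and 1.58 in C14. Col6a1 was at 0.812 in C01 and 1.63 in C14, and Col6a2 at 0.796 in C01 and 1.74 in C14. The sum of all collagens was at 0.912 in C01 and 1.12 in C04.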

How the results depend on the processing

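Of 249 alternative values of 29 results, 199 stayed close to the main value, 46 moved and 4 were counted as reversed. The reversed values were all the summed collagen UMI ratio of Stromal CNV1 (1.22), which was 0.969 without Ptprc cells, 0.572 without the endothelial-like cells, 0.524 as a mean over cells and 0.754 with thinned cells; it was 1.49 without the shallowest cells. As means over cells the ratio was 0.940 in C01, 0.913 in C08, 0.860 in C14 and 0.431 in Stromal CNV2. With thinned cells it was 0.936 in C01, 1.08 in C04, 0.918 in C08, 0.829 in C14, 0.441 in Stromal CNV2 and 0.440 in immune clusters. In CNV3 cells alone it was 1.06 in C04, 0.968 in C08 and 0.902 in C14, and without Ptprc cells 0.924 in C08 and 0.899 in C14. Collagens lower by 2-fold in C08 (1) numbered 0 in CNV3 cells (0.0422% of all genes), where Col1a1 was under the 0.1 CP10K filter. They numbered 0 at a pseudocount of 1 (0%) and at 1 CP10K or more (0.0808%). They numbered 2 at a pseudocount of 0.01 (0.308%) and at 1.5-fold (0.644%). The median log2 ratio of collagens at 1 CP10K or more was -0.26 in C08 and -0.34 in C14, against main values of -0.06 and 0.09. In CNV3 cells alone the C08 median was 0.07. Such changes of sign were not counted as reversed, because that label needed a main median of at least 1 in absolute size. In Stromal CNV1, collagens higher by 2-fold (0) numbered 2 without the shallowest cells, 2 by summed UMIs and 1 at 1.5-fold. The shares of all genes there were 6.85%, 4.68% and 24.3%. Collagens lower (10) numbered 2 without the shallowest cells, 3 at a pseudocount of 1, 5 at 1 CP10K or more and 4 by summed UMIs. The shares of all genes there were 18.7%, 0.315%, 10.4% and 9.43%. In Stromal CNV2, collagens higher (1) numbered 0 without the shallowest cells, at a pseudocount of 1 and at 1 CP10K or more. They also numbered 0 by summed UMIs and for genes of more than 3 UMIs. In this order the shares of all genes were 2.2%, 0.0684%, 2.82%, 1.55% and 5.64%. They numbered 2 at a pseudocount of 0.01 (13.8% of all genes), at 1.5-fold (17.2%) and after centring (8.7%). Collagens lower (6) numbered 11 at a pseudocount of 0.01 (25.6%), 0 at a pseudocount of 1 (0.0171%), 1 by summed UMIs (1.98%) and 12 at 1.5-fold (28.5%). The cause was not tested. The share of immune cells was 18.0% in WT and 19.4% in S303/7A at 2 UMIs or more, and 14.4% and 6.54% with thinned cells. No paired analysis was possible because each genotype is 1 library.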
